A study of Homo sapiens with 2 samples.

Results

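Among the RNAs best known to carry A-to-I edited codons, 6 were followed through a map of ADAR1 binding sites: AZIN1, COPA, NEIL1, BLCAP, IGFBP7 and COG3. A binding site, called a cluster, was counted for a gene when its midpoint lay inside the hg19 interval of the gene and it was on the same strand. By this rule 10 of the 23782 clusters of the whole list belonged to the 6 genes. They fell in 5 of the 6 genes, with 4 in COG3, 3 in COPA, 1 each in AZIN1, NEIL1 and IGFBP7, and 0 in BLCAP.

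The clusters were mapped by CLIP-seq, in which protein-bound RNA is crosslinked, immunoprecipitated and sequenced. The cells were U87MG, a long-established line from a human glioblastoma (labelled astrocytoma), at passage 6 and with no genetic change or drug named in the labels. Cells were irradiated on ice with ultraviolet light of 254 nm, which links proteins to the RNA they touch. The dose is given as 800 mJ per cm2, with 2 exposures, for both libraries. A mouse monoclonal antibody was used to collect ADAR1 with its RNA. The 2 libraries, labelled AB1 and AB2 for the antibody, carry the same antibody catalogue entry although the study speaks of different antibodies, and they share 1 deposited cluster list. For each cluster it gives the position, the strand and whether it was classed as Alu, but no read counts and no column per library. The sequencing depth of a cluster is therefore unknown, and no value below has a replicate error. No control library, such as one from cells without ADAR1, was used here.

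ADAR1 is an enzyme that deaminates adenosines in RNA duplexes to inosine, and inosine is read as guanosine by the ribosome. Most human editing lies in Alu repeats in introns and untranslated regions, where copies of opposite orientation pair with each other. In a small group of genes an adenosine inside a codon is edited, so that the protein changes. Such an exon usually has to pair with other sequence of the same transcript, often in a neighbouring intron, to form the duplex that an ADAR enzyme acts on. ADAR1 and its relative ADAR2 share some of these codons and differ in others.

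The edited codons of 5 of the 6 genes are shown first, since an edited codon is what put the genes in this group; that of AZIN1 is not shown here. They were read from the GENCODE release 29 transcripts, 5' to 3' on the coding strand, as 29 bases with the edited codon in capitals. Transcripts were chosen to carry the known residue. As a check of identity, and not a result, replacing 1 adenosine by guanosine in each codon had to give the known protein change. Protein positions are counted from the initiator methionine.
COPA, isoleucine to valine: gcgcgtttgggatATTtctggtctgagga
NEIL1, lysine to arginine: ccagttggggggcAAAggctacgggtcag
BLCAP, Y2C: atgTATtgcctccagtggctgctgcccgt
BLCAP, Q5R: atgtattgcctcCAGtggctgctgcccgt
BLCAP, K15R: cctcctcatccccAAGcccctcaaccccg
IGFBP7, R78G: tggcggcgccggcAGGgggtactgcgcgc
IGFBP7, K95R: ccgcaagaggcggAAGggtaaagccgggg
COG3, isoleucine to valine: caccattaaggaaATTtccctggacctca

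In these 8 codons the edited adenosine was the first base in 3 and the second base in 5. The base before it was A in 4 codons, T in 2, C in 2 and G in 0. ADAR enzymes are known to disfavour a G at that place and to favour a G after the edited base, which was present in 4 of the 8 codons. How often G stands beside other adenosines of these transcripts was not computed, so the counts do not show a preference. The IGFBP7 codons lie in exon 1 of 5 and the BLCAP codons in exon 3 of 3 of the transcripts read. The COPA codon lies in exon 6 of 33, the NEIL1 codon in exon 6 of 10 and the COG3 codon in exon 17 of 23. These exons are annotated on GRCh38, while the clusters are on hg19. The 2 builds were not joined, so the distance from a cluster to an edited codon was not analysed here, nor whether a cluster lies in an exon, an intron or an untranslated region.

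COPA and COG3 held 7 of the 10 clusters. Both encode parts of the machinery that serves the Golgi apparatus: COPA is the alpha subunit of the COPI coat of transport vesicles, and COG3 is a subunit of the conserved oligomeric Golgi complex, which tethers such vesicles. The map of clusters along the genes shows several clusters along each of them, 1 of which was non-Alu in each gene.

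**Figure D1:**
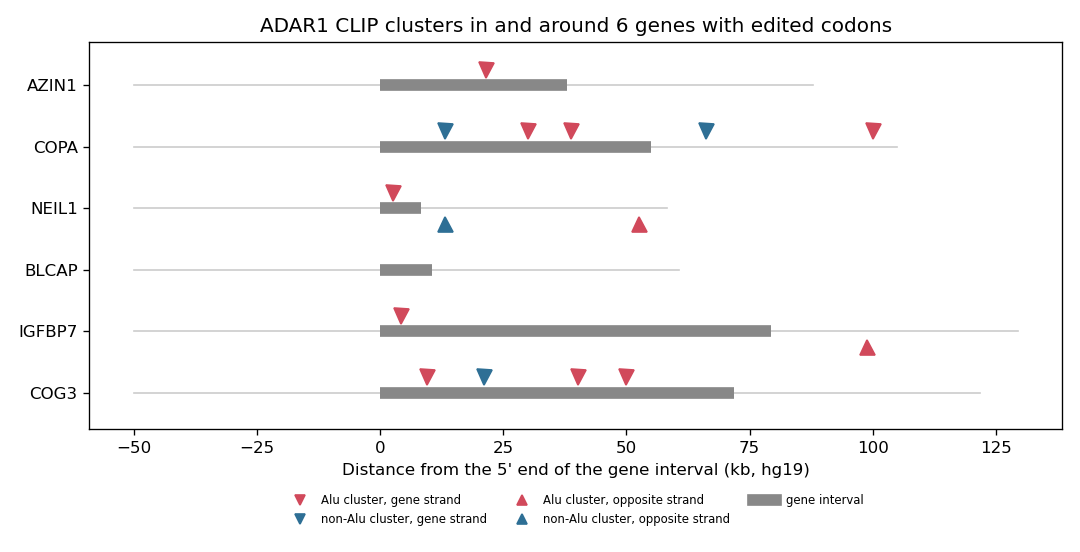
Clusters in and within 50 kb of each gene interval, plotted by distance from the 5' end of the interval in kb. Triangles pointing down mark clusters on the strand of the gene and triangles pointing up those on the opposite strand, coloured by class; COG3 holds 4 clusters, COPA 3 and BLCAP 0.

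COG3 is encoded on the plus strand of chromosome 13, in an interval of 71.8 kb. Its first cluster from the 5' end, an Alu cluster of 150 bases, lay from 46048468 to 46048617. The second, non-Alu and of 196 bases, lay from 46060035 to 46060230. The third and the fourth were Alu clusters of 229 bases, from 46079014 to 46079242, and of 125 bases, from 46088794 to 46088918. They stood 9.54, 21.1, 40.1 and 49.9 kb from the 5' end of the interval, and the last 21.9 kb of the interval beyond the midpoint of the fourth held none. The gaps between them were 11.4, 18.8 and 9.55 kb. No other cluster on either strand lay within 50 kb of the interval. As background, 1.02% of windows as long as COG3, tiled along each strand of the chromosomes, held 4 or more clusters. Such windows include untranscribed sequence, so the share describes the list and is no test of the gene.

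COPA is encoded on the minus strand of chromosome 1, in an interval of 54.9 kb. The cluster nearest its 5' end was non-Alu, of 169 bases, from 160299999 to 160300167. The other two were Alu clusters of 197 bases, from 160283155 to 160283351, and of 215 bases, from 160274254 to 160274468. Their distances from the 5' end of the interval were 13.1, 29.9 and 38.8 kb, with gaps of 16.6 and 8.69 kb. Windows as long as COPA held 3 or more clusters in 1.69% of cases. Beyond the 3' end of COPA, 2 more minus-strand clusters lay within 50 kb, 1 Alu and 1 non-Alu, the nearer at 11.2 kb. Which transcript they belong to was not analysed here. COPA was the only one of the 6 genes with a further cluster of its own strand within 50 kb.

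AZIN1, NEIL1 and IGFBP7 each had a single cluster, of class Alu. AZIN1 encodes antizyme inhibitor 1, which binds antizyme and so protects ornithine decarboxylase, the first enzyme of polyamine synthesis, from degradation. Its cluster, 157 bases long, spanned 103854752 to 103854908 of chromosome 8 (minus strand) and stood 56.9% of the way along the 37.9 kb interval. Of windows as long as AZIN1, 10.8% held 1 or more clusters. No other cluster of either strand lay within 50 kb of AZIN1.

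NEIL1 is a DNA glycosylase that removes oxidised bases at the start of base excision repair. Its only cluster had 85 bases, from 75641936 to 75642020 on the plus strand of chromosome 15. It was the shortest of the 10, and 2.39% of all clusters in the list were shorter. The interval of NEIL1 is also the shortest of the 6, at 8.30 kb, and 2.99% of windows of that length held 1 or more clusters. The interval covers less than the whole gene, whose length in RefSeq is 10.1 kb, but widening it by 5 kb on each side added no same-strand cluster. On the opposite strand 2 clusters lay within 50 kb beyond the 3' end, the nearer, at 4.87 kb, non-Alu and the other Alu.

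IGFBP7 is a secreted protein that binds insulin-like growth factors and other ligands. It has the longest interval of the 6, 79.4 kb on the minus strand of chromosome 4, and held a single cluster of 122 bases from 57972198 to 57972319. This cluster was the one closest to the 5' end in relative terms, 4.34 kb or 5.47% into the interval. Windows as long as IGFBP7 held 1 or more clusters in 18.4% of cases, the highest share among the 5 genes with a cluster. An opposite-strand Alu cluster lay 19.4 kb beyond the 3' end.

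BLCAP, which encodes a small membrane-associated protein first described in bladder cancer, has 3 of the 8 edited codons shown above and no cluster. Its interval of 10.6 kb on the minus strand of chromosome 20 was without a cluster on either strand, as were the 50 kb on both sides. Of windows as long as BLCAP, 96.3% held 0 clusters, so an interval of this length without a cluster is the usual case in the list. Since the list gives no depth, and the level of BLCAP RNA in these cells was not measured here, the absence of a listed cluster does not show that ADAR1 does not bind it.

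The 6 intervals, 262.9 kb in all, held 0 opposite-strand clusters. The whole list has 0.04 clusters per 10 kb of strand, so this 0 is not read as a trait of these genes. With 8 Alu and 2 non-Alu clusters, the Alu share was 80.0%, with a Wilson 95% interval of 49.0 to 94.3% that covers counting error only. The share in the whole list was 84.9%, inside that interval. The interval treats the 10 clusters as independent, but 7 of them lie in COPA and COG3. It therefore cannot decide whether the shares differ, and no test was run. Both non-Alu clusters were in genes with several clusters, COPA and COG3, and each was the first or the second cluster from the 5' end.

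The clusters of the 6 genes had a median length of 163 bases (range 85 to 229), against 192 bases in the whole list (lower and upper quartile 151 and 221 bases). Of the 10 clusters, 6 were shorter than the median of the list and 4 were shorter than its lower quartile: those of NEIL1 and IGFBP7 and 2 of COG3. Only the COG3 cluster of 229 bases was above the upper quartile. The 8 Alu clusters had a median of 153.5 bases and ranged from 85 to 229 bases, so they spanned the lengths of the 2 non-Alu clusters, 169 and 196 bases. The interval of the median length from order statistics, set for at least 95% confidence, runs from the second shortest to the second longest cluster. It was 122 to 215 bases and includes the median of the list, 192 bases. It treats the 10 clusters as independent, but 7 of them lie in COPA and COG3, and clusters of the same gene share its transcript. The interval therefore cannot decide whether the lengths differ from those of the list.

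**Figure D2:**
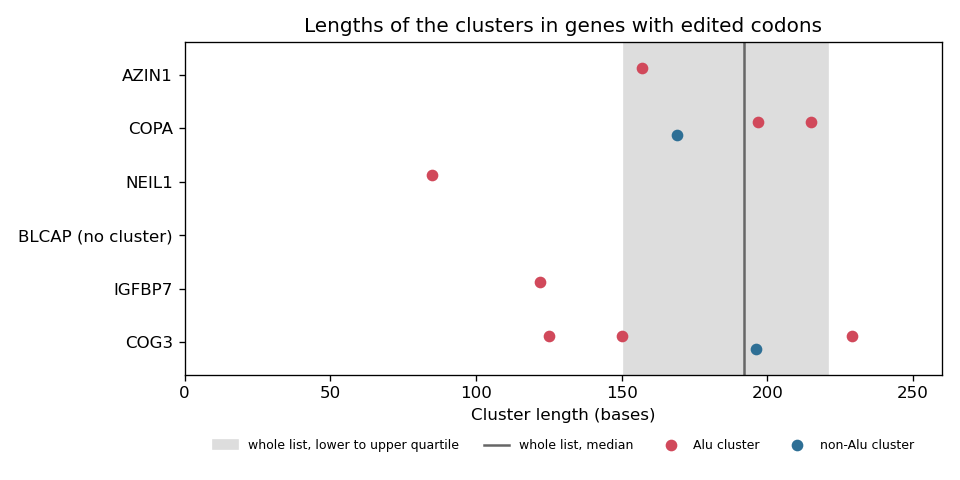
Length in bases of each cluster, by gene and coloured by class, with the median (line) and the lower to upper quartile (band) of the whole list. The NEIL1 cluster of 85 bases is the shortest, and COG3 spans 125 to 229 bases.

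The genes differed in the distance from a cluster to the nearest one on the same strand. Several clusters within 1 gene lie no further apart than its length, so these distances in part restate the cluster counts. In COPA and COG3 the distance to the nearest cluster ranged from 8.69 to 16.6 kb, below the median of the whole list, 17.7 kb. Where a gene had a single cluster, the nearest one lay outside the gene, at 142 kb in IGFBP7, 191 kb in AZIN1 and 310 kb in NEIL1, each above the upper quartile of the list, 49.2 kb. In the list, 96.0% of clusters had a nearer neighbour than the NEIL1 cluster. None of the 10 had a same-strand neighbour within 1 kb, as 6.70% of all clusters did. Within 10 kb 4 of the 10 had one, or 40.0%, against 36.7% of the list. Clusters of 1 gene share its transcript, so the 7 values of COPA and COG3 are not independent of each other.

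**Figure D3:**
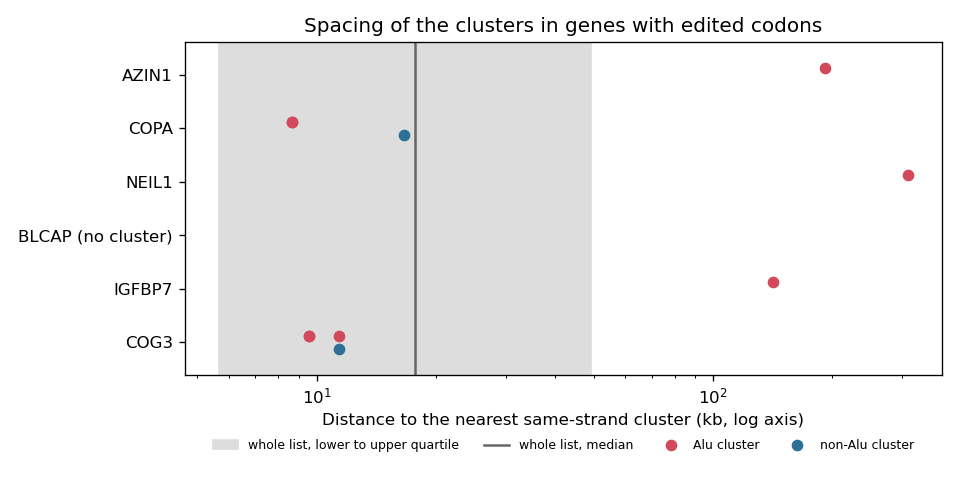
Distance in kb (log axis) from each cluster to the nearest one on the same strand, by gene and class, with the median and quartile band of the whole list. Clusters of equal distance overlap; the single clusters of AZIN1, NEIL1 and IGFBP7 lie to the right of the band.

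Along the genes, 5 clusters lay before the middle of their interval and 5 beyond it. The positions ran from 5.47 to 70.7% of the way from the 5' end, with a median of 43.4%. The cluster closest to any end of an interval was that of NEIL1, 2.68 kb from the 5' end.

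For comparison, the same rule was applied to 17 other genes with codons known to be edited. They held 32 clusters, 29 Alu and 3 non-Alu, on the strand of the gene. The Alu share was 90.6% (Wilson 95% interval 75.8 to 96.8%, counting error only), against 80.0% in the 6 genes. The 2 shares were not tested against each other. Clusters were found in 13 of the 17, and no opposite-strand cluster was found in any of them. The 17 genes cover 3.89 Mb against 0.26 Mb for the 6, and the whole list has 0.04 clusters per 10 kb of strand. By length alone, 0 opposite-strand clusters is thus less usual for the 17 genes than for the 6. It was not tested. The 17 genes ranged from 8.35 to 671 kb, and longer windows more often hold a cluster. Of windows as long as NEIL1 (8.30 kb) 2.99% held 1 or more, and of those as long as IGFBP7 (79.4 kb) 18.4%. Shares at the lengths of the 17 were not computed, so 13 of 17 is not read as a trait of these genes. Per length, the 6 genes held 0.38 clusters per 10 kb in all and the 17 genes 0.082. Over the whole list the value was 0.04 per 10 kb of strand, counted along both strands of each chromosome with untranscribed sequence included. COPA and COG3 held 7 of the 10 clusters of the 6 genes, and both sets of genes were chosen with earlier results of these data known. Many of the 17 are very long genes of the nervous system, and RNA levels were not measured here, so these densities are given side by side without a test.

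Among ion channels and neurotransmitter receptors, clusters were Alu throughout except in TMEM63B, which encodes a mechanically gated channel. The kainate receptor subunit GRIK1 had 6 clusters and its relative GRIK2 had 1. Of the AMPA receptor subunits, GRIA4 had 2, GRIA3 had 1 and GRIA2, the best known edited receptor RNA, had 0. The serotonin receptor HTR2C had 3, the GABA-A receptor subunit GABRA3 had 2, the calcium channel CACNA1D had 2 and the potassium channel KCNA1 had 0. TMEM63B had 3 clusters, or 1.05 per 10 kb, and 2 of the 3 were non-Alu. NEIL1 had 1.20 per 10 kb over its shortened interval and 0.99 over its RefSeq length, so the order of these genes depends on the length taken. Both were above the other 21 genes, of which COG3 was the densest. The place of NEIL1 rests on 1 cluster in an interval of 8.30 kb, and KCNA1, at 8.35 kb, had 0. In genes this short a single cluster sets the density, so the rank is not read as a trait of NEIL1.

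The other genes of this group are structural or regulatory. FLNA, a filamin that crosslinks actin, had 1 cluster, which was non-Alu. CADPS, which primes secretory vesicles, and NOVA1, a splicing regulator, had 4 Alu clusters each, the kinase CDK13 had 2 and the sialomucin PODXL had 1. SON, a splicing cofactor, and CYFIP2, part of the WAVE complex, had 0. Non-Alu clusters thus occurred in 2 of the 17 genes (FLNA and TMEM63B) and in 2 of the 6 (COPA and COG3). By cluster they were 3 of 32 and 2 of 10, beside 15.1% of the whole list, and no difference between the gene sets was tested.

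**Figure D4:**
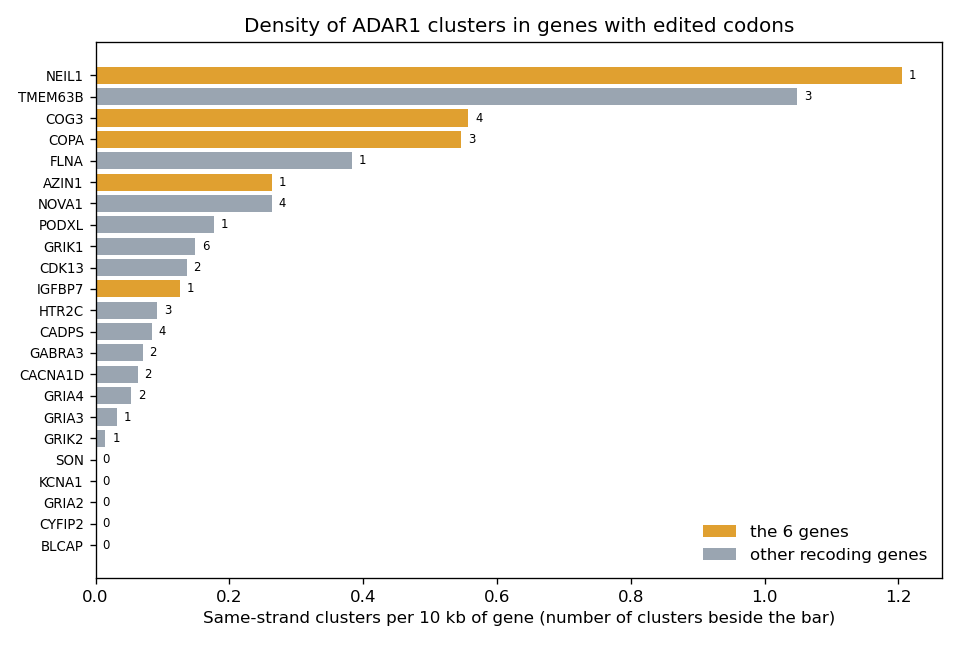
Same-strand clusters per 10 kb of gene for the 6 genes and the 17 other genes, as bars from 0, with the number of clusters beside each bar. NEIL1, with a single cluster, is at 1.20 per 10 kb over the interval shown (0.99 over its RefSeq length), TMEM63B is at 1.05, COG3 and COPA follow at 0.56 and 0.55, and BLCAP is among 5 genes at 0.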

How the data were processed

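Per the labels' protocols, crosslinked RNA was joined to linkers, amplified for 23 PCR cycles and selected at 75 to 250 bases. Per the submitters' processing notes, cutadapt 1.1 and Novoalign 2.08.22 were used with hg19. Left unstated are the cluster caller, its thresholds, the way the 2 libraries were combined and how the Alu class was assigned (not given in the sources used here). The treatment of reads that match several places can affect which Alu copies are listed, and it was not examined here. The deposited list holds position, strand and class, and no measured level. Starts were read as counted from 0 and are printed counting from 1.

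The gene intervals are those of the rule, rounded to 100 bases. Against RefSeq gene lengths (GRCh38.p14, lengths only), 5 of the 6 differed by at most 1.34%, and that of NEIL1 by -17.6%. The edited codons and the intervals of the 17 other genes came from general knowledge. Each codon was checked in its transcript, and the 17 intervals (hg19) were within 5% of the RefSeq length. The 6 genes and the list of 17 were chosen with earlier results of these data known. The genes named are all 6 and, of the 17, those with a cluster; the 4 without one were named after their values were seen. Besides these, 1 further gene with an edited codon is not reported here. Python 3.11.15, numpy 2.4.6, pandas 2.3.3, scipy 1.17.1 and Biopython 1.88 were used. The counting was tested on simulated data. No test was run, since 1 list has no replicates.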

Additional observations from a re-analysis of the deposited data

How the results depend on the processing

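Of 63 alternative values, 56 stayed within 1.5 times the reported count or, for shares and lengths, within the interval of the reported value. Any overlap, whole clusters inside the interval, both strands, intervals widened by 5 kb and merging within 50 bases each left 10 clusters. Distances given above fix this outcome, so these settings do not test the counts. No midpoint lay within 2.68 kb of an interval end, and the nearest same-strand cluster outside was at 11.2 kb. The intervals held 0 opposite-strand clusters, and none of the 10 had a same-strand neighbour within 1 kb. Keeping clusters at or above the median length of the list left 4, 2 in COPA and 2 in COG3, and 0 in AZIN1, NEIL1 and IGFBP7; this filter removes clusters by construction. Among windows with at least 1 cluster, 11.9% of those as long as COPA held 3 or more and 5.96% of those as long as COG3 held 4 or more, against 1.69% and 1.02% of all windows, since empty windows are left out. For genes with 0 or 1 cluster this setting gives no value of interest and was not run. No paired analysis was possible because the list does not separate the 2 libraries, and none could be left out. The density of NEIL1 over its RefSeq length, 0.99 per 10 kb, was added after seeing the data. Depth is unknown, so a gene without a listed cluster cannot be judged.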
